A study of Drosophila melanogaster with 7 samples.

Results

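Neuropeptides and peptide hormones are cut from larger precursor proteins inside dense-core vesicles and are released to act on receptors of other neurons or of distant organs. In the fly nervous system each precursor is made by its own set of neurons, and these sets run from many scattered cells to a pair of cells per animal. Insulin-like peptides belong to the same secreted class, and some of them are made by neurosecretory cells of the brain. The genes described here are those precursors, chosen by a fixed list of 42 FlyBase symbols and by no rule on their values. The list was made with earlier results of these data known. Of the 42 symbols, 41 were found among the 17753 genes of the count table. Nplp2 was left out because its identifier was not matched.

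The RNA came from 7 primary neuron cultures that the labels call control, which per the study were w1118 neurons after 7 days in vitro. Such cultures were made from pooled, dissociated central nervous systems of third-instar larvae, in a medium with serum and added insulin, and cells for RNA isoforms were grown on coverslips. They could hold other cells of the larval nervous system beside neurons. All 7 belong to 1 condition, so no comparison between treatments or genotypes was made. The libraries held 21178515 to 33891136 counts and are named here by their column headings, CC_1 to CC_7, whose numbers could not be tied to the numbered sample labels. Levels are given in CPM, that is counts per 1000000 counts of the library, with the mean ± SD over libraries or the lowest, median and highest library.

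The marker genes of neurons (elav, brp, Syt1, nSyb and Syn) were all present and summed to 2111.4 to 2514.7 CPM, against 94.6 to 151.2 CPM for 6 glial, 53.4 to 73.2 CPM for 5 neuroblast and 86.7 to 210.7 CPM for 5 muscle markers. Library CC_1 stood apart in RNA of other tissues. Its 9 photoreceptor genes summed to 1148.0 CPM (31.7 to 230.4 CPM in the other libraries). Its 3 yolk protein genes summed to 742.2 CPM (24.6 to 238.6 CPM). Its 5 fat body genes summed to 575.3 CPM (47.9 to 171.7 CPM), of which apolpp alone gave 557.7 CPM. Lsp1beta was also highest in CC_1, at 15.4 CPM. Of the other fat body genes, Lsp2 was highest in CC_4 (1.95 CPM), and Fbp1 and Fbp2 in CC_5 (1.26 and 0.841 CPM). Results that rest on CC_1 are therefore also given without it. In bulk RNA, fewer cells of a type and less RNA per cell cannot be told apart.

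The precursors together took 894.5 ± 95.2 CPM (SD, n = 7), between 800.5 CPM in CC_7 and 1041.9 CPM in CC_2. Without CC_1 the sum was 889.4 ± 103.3 CPM (SD, n = 6). The sum was carried by Proc, Nplp1 and sNPF, which made up 79.7 ± 3.31% of it, and between 73.3% in CC_3 and 82.5% in CC_6. Mean levels fell into 3 genes of at least 100 CPM, 6 of 10 to 100 CPM, 16 of 1 to 10 CPM and 16 below 1 CPM.

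At least 10 counts in every library were reached by 21 of the 41 genes, where 53.4% of all genes listed passed this limit. The members just inside were Hug and Ilp6, each with a lowest count of 11, and those just outside were CCHa1 and CNMa, each with a lowest count of 9. The 21 genes had a median of 5.98 CPM, below the 24.1 CPM of the 9476 genes that passed. On the log2(CPM + 1) scale the medians were 2.72 and 4.63. Proc, Dh31, Capa, ITP and Dh44, which the study lists as Pumilio targets in adult heads, each passed the limit. The study took as targets only RNAs above an expression limit, and the share of all its targets that passed is not given here.

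**Figure D1:**
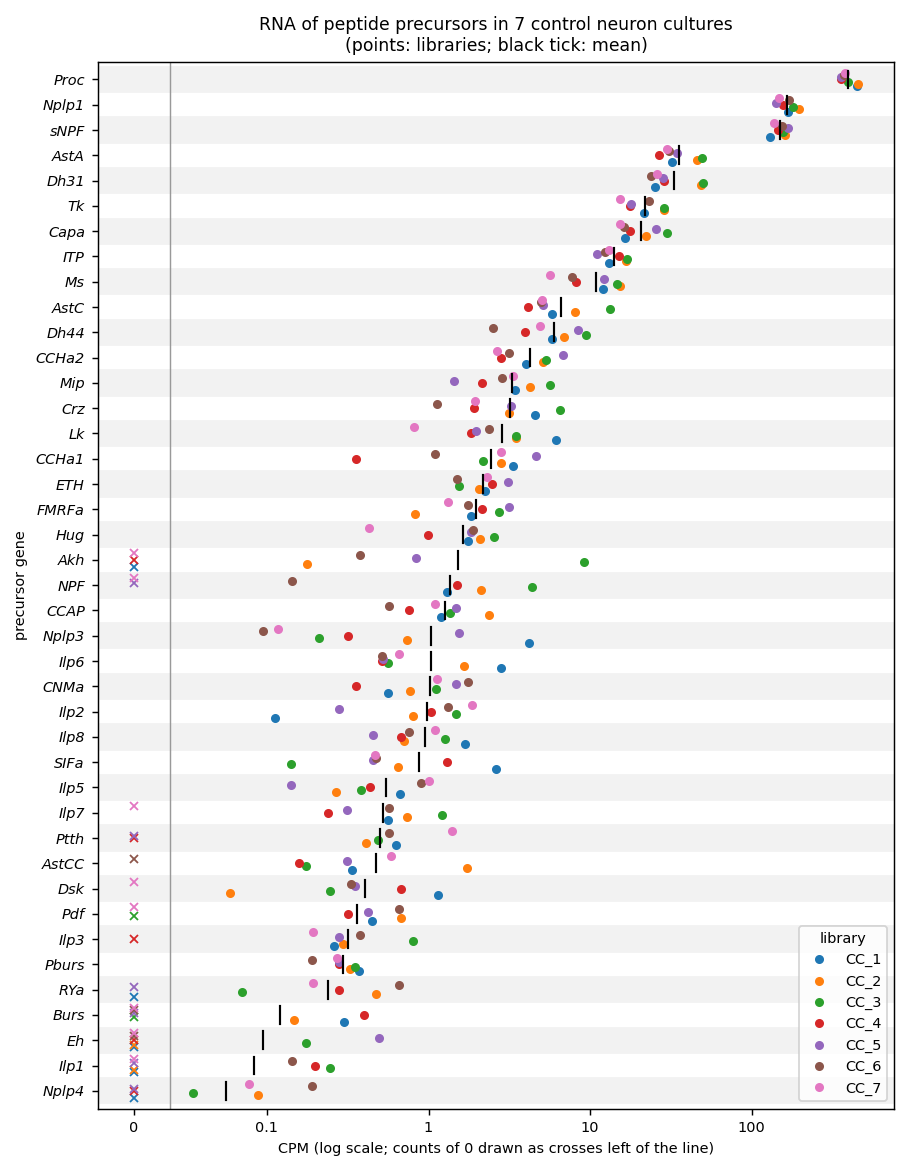
CPM of each precursor gene on a log axis, with 1 point per library (colours), a black tick at the mean of the 7 libraries and crosses for counts of 0. Proc, Nplp1 and sNPF lie above 100 CPM with their points close together, and the points spread apart towards the foot of the plot, where 13 genes have crosses.

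The most abundant precursor RNA was that of Proc, which encodes proctolin, a peptide that acts on muscle and in the nervous system. Proc (FBgn0045038, chromosome 2L, 7864642 to 7871432 in BDGP6.54, minus strand) had 357 CPM in its lowest, 375.4 CPM in its median and 455.5 CPM in its highest library. Its mean was 394.2 ± 41.6 CPM (SD, n = 7), and it ranked 398 by mean CPM among all genes. The 2 highest libraries were CC_2 and CC_1, at 455.5 and 449.4 CPM, and the other 5 lay between 357 and 393.6 CPM. Proc alone made up 39.5% (CC_3) to 48.6% (CC_1) of all precursor RNA.

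Nplp1, a precursor of several peptides that marks apterous neurons of the ventral nerve cord, followed at 165.6 ± 18.6 CPM, with 142.2, 167.2 and 194.7 CPM in the lowest, median and highest library. sNPF, the precursor of the short neuropeptide F peptides, which many types of fly neurons make and which promote feeding, had 150.6 ± 13.3 CPM (130.6, 154.7 and 168.3 CPM). For these 3 genes the highest library was 1.28 to 1.37 times the lowest, so they were present at a near-even level in every culture.

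The next group had 10 to 100 CPM and held peptides of feeding, water balance and muscle control. AstA, the precursor of the allatostatin A peptides, which act on feeding and the gut, had 35.5 ± 8.47 CPM. Dh31, a calcitonin-like diuretic hormone, had 32.9 ± 11.4 CPM. Both were highest in CC_3 and CC_2, at 48.9 and 45.7 CPM for AstA and at 50.1 and 48.7 CPM for Dh31, while the other 5 libraries reached at most 34.7 and 28.7 CPM. CC_2 and CC_3 thus lay apart from the other libraries for both genes. Tk, the tachykinin precursor, had 21.8 ± 5.33 CPM and was likewise highest in CC_3 and CC_2, at 28.8 and 28.5 CPM. Capa, whose peptides act on the renal tubules and are made in neurosecretory cells of the abdominal ganglia, had 20.5 ± 5.58 CPM (15.3, 17.7 and 29.9 CPM). ITP, the ion transport peptide gene, which limits water loss, had 14.0 ± 2.26 CPM (11.0, 13.0 and 16.9 CPM), the smallest relative spread of this group at 16.1% of the mean. Ms, the precursor of myosuppressin, which inhibits visceral muscle, had 10.8 ± 3.72 CPM and was lowest in CC_7, at 5.68 CPM.

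Precursors of 1 to 10 CPM included AstC, Dh44 and Lk. AstC, the precursor of the inhibitory peptide allatostatin C, had 13.2 CPM in CC_3, 8.08 CPM in CC_2 and 4.14 to 5.77 CPM in the other 5. Dh44, a diuretic hormone related to corticotropin-releasing factor, had 2.50, 5.81 and 9.43 CPM in the lowest, median and highest library. Lk, the leucokinin precursor, which acts on water balance, had 0.817, 2.36 and 6.11 CPM. Dh44 was highest in CC_3 and lowest in CC_6, whereas Lk was highest in CC_1 and lowest in CC_7. The annotation places an antisense RNA, asRNA:CR44843, over 93.0% of the exon bases of Lk, and this RNA had 3.18 ± 0.670 CPM. With the strand setting of the counting unknown, reads of both cannot be told apart.

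Crz, the precursor of corazonin, a stress hormone of a few brain and ventral cord neurons, had 6.5 CPM in CC_3 and 4.54 CPM in CC_1, but 1.13 CPM in CC_6. Mip, the precursor of the myoinhibitory peptides, had 1.44, 3.31 and 5.62 CPM in the lowest, median and highest library. CCHa2, which in larvae signals from fat body and gut to the insulin-producing cells, had 2.64, 3.99 and 6.76 CPM. The related CCHa1 had 4.63 CPM in CC_5 and 0.358 CPM in CC_4, a 12.9-fold range. Each of these 4 precursors was present in every culture, at levels that differed at least 2.56-fold between the extremes.

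The remaining genes near 1 CPM include peptides of ecdysis and of feeding circuits. ETH, the ecdysis triggering hormone, is made in Inka cells on the tracheae and not in central neurons, and it had 1.51, 2.23 and 3.12 CPM in the lowest, median and highest library. An antisense RNA, asRNA:CR43257, covers 90.5% of its exon bases and had 0 counts in 4 libraries and at most 34 counts, in CC_5, which was also the highest library for ETH. Of the tracheal markers Gasp, serp, verm and btl, only btl reached 10 counts in every library, and the 4 summed to 2.58 to 7.34 CPM. Their part in the ETH signal was not tested. FMRFa, the precursor of FMRFamide-related peptides, had 0.826, 1.83 and 3.15 CPM. Hug, the hugin precursor of neurons that suppress feeding, had 0.428, 1.82 and 2.55 CPM. It lies within Octbeta3R, on the opposite strand, which had 142.8 ± 6.96 CPM. The part of Octbeta3R reads in the Hug level was not tested. CCAP, a cardioactive peptide that also acts at ecdysis, had 0.567, 1.19 and 2.36 CPM. CNMa, the precursor of a peptide that binds its own receptor in flies, had 0.358, 1.12 and 1.75 CPM. For FMRFa the lowest library was CC_2, and for Hug CC_7, so no single library was lowest in all of them.

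Levels of different genes were compared per kilobase of exon, since a longer RNA gives more counts. On that scale Proc led with 199.4 ± 21.1 CPM per kb, above sNPF (61.6 ± 5.42) and Nplp1 (61.3 ± 6.88), and this lead held in 7 of 7 libraries, with a mean log2 difference of 1.69 between Proc and sNPF. sNPF and Nplp1 did not differ beyond their spread (log2 difference 0.01, sNPF higher in 4 of 7). Capa, a short gene of 695 exon bases, had 29.5 ± 8.03 CPM per kb and lay beside Dh31 (25.4 ± 8.78) and AstA (24.3 ± 5.80), and these neighbours did not separate. The longest gene, ITP with 4686 exon bases, had 2.99 ± 0.482 CPM per kb.

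Of the 20 neighbouring pairs in this order, 5 kept the same order in 7 of 7 libraries. These were Proc above sNPF, Nplp1 above Capa, AstA above Tk, Tk above Ms and Ms above AstC. Each gave p = 0.0156 in a two-sided exact sign-flip permutation test (n = 7), which is the smallest p that 7 libraries allow. After Benjamini-Hochberg adjustment over the 20 pairs this was 0.0625, so 0 pairs passed 0.05. The number of neighbours with an unadjusted exact permutation p below 0.05 was 6, CCAP above Ilp6 included (p = 0.0312, higher in 6 of 7). From AstC down to CCAP, neighbours differed by less than the spread between libraries.

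**Figure D2:**
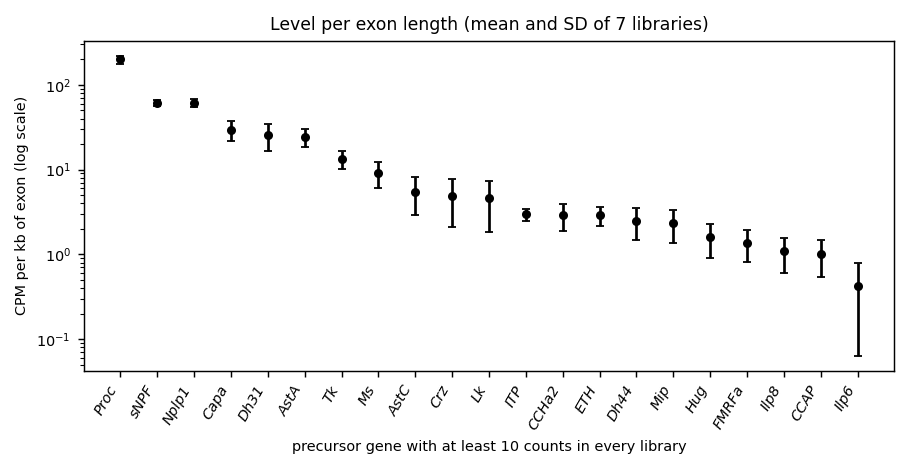
CPM per kb of exon on a log axis for the 21 precursor genes with at least 10 counts in every library. Points are means and bars SD of the 7 libraries. Proc at 199.4 stands above sNPF and Nplp1 at 61.6 and 61.3, and the bars of most genes from AstC downwards overlap with those of their neighbours.

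The insulin-like peptides lay at the low end. Ilp2, Ilp3 and Ilp5 are made in the insulin-producing cells of the brain, and their genes lie with Ilp1 in a cluster on chromosome 3L, between 9798420 and 9823897 in BDGP6.54. Ilp2 had 0.112, 1.03 and 1.87 CPM in the lowest, median and highest library, from 3 counts in CC_1 to 48 counts in CC_7. Ilp5 had 0.140, 0.437 and 1.01 CPM, and Ilp3 had 0, 0.280 and 0.803 CPM. Ilp2 and Ilp5 were both highest in CC_7, whereas Ilp3 was highest in CC_3. Across the 7 libraries the log2(CPM + 1) values had Pearson correlations of 0.466 for Ilp2 with Ilp5, 0.181 for Ilp2 with Ilp3 and -0.111 for Ilp3 with Ilp5. These values rest on few counts and are given as a description. Ilp2 and Ilp3 lie within CG32052, on its same and opposite strand, and Ilp5 within CG43897, on the opposite strand. CG32052 had 10.9 ± 3.28 CPM. The part of reads of these enclosing genes in the levels was not tested.

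Ilp1 had 0 counts in 4 libraries and at most 7 counts in any, and 40.9% of its exon bases are shared with CG32052 on the same strand. Ilp7, made by neurons of the ventral nerve cord, had 0, 0.559 and 1.22 CPM. Ilp6, which is made mainly in fat body and in glia, had at least 10 counts everywhere and was highest in CC_1 (2.79 CPM) and CC_2 (1.65 CPM), with 0.517 to 0.661 CPM in the other 5. Those 2 libraries also had the highest photoreceptor, yolk and fat body sums, whereas the glial sum was 151.2 CPM in CC_1, 124.6 CPM in CC_2 and 94.6 to 127.9 CPM in the others. The part of these cells in the Ilp6 level was not tested. Ilp6 also lies within Raf, on the opposite strand, which had 53.0 ± 6.77 CPM, and the part of Raf reads was not tested. Without CC_1, Ilp6 averaged 0.739 ± 0.451 CPM (SD, n = 6), against 1.03 ± 0.879 CPM with it. Ilp8, a signal of growing or damaged imaginal discs, had 0.456, 0.755 and 1.68 CPM, again highest in CC_1.

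Some precursors were present in certain cultures and at or near 0 in others. Of the 41 genes, 13 had 0 counts in at least 1 library, and 11 of these had at least 10 counts in another. Among all 15797 genes with a count, 18.2% showed this combination. Taken as 3 counts, the limit that a count of 0 allows was 0.0885 to 0.142 CPM in these libraries. Intervals and limits of this kind cover counting error only.

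Akh, the adipokinetic hormone that mobilises stored energy, is made in the corpora cardiaca, a gland attached to the larval brain. It had 264 counts in CC_3, or 9.22 CPM (95% exact binomial interval 8.14 to 10.4 CPM). CC_5 had 24 counts, CC_6 had 8, CC_2 had 6, and CC_1, CC_4 and CC_7 had 0. The level in CC_3 was 11.0 times that of the next library, and without CC_3 the mean was 0.233 ± 0.334 CPM (SD, n = 6), against 1.52 ± 3.41 CPM with it.

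NPF, the fly relative of vertebrate neuropeptide Y, is made by a small number of brain neurons and by the midgut. It had 125 counts in CC_3, 72 in CC_2, 38 in CC_4 and 35 in CC_1, against 3 in CC_6 and 0 in CC_5 and CC_7. In CPM the 4 libraries with NPF RNA had 1.30 to 4.37, and without CC_3 the mean was 0.847 ± 0.918 CPM (SD, n = 6), against 1.35 ± 1.57 CPM with it. The 5 midgut markers alphaTry, betaTry, Jon65Aiii, Mal-A1 and lambdaTry summed to at most 3.84 CPM, with 0 counts of all of them in CC_4. The part of midgut RNA in the NPF level was not tested.

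Several precursors of very few neurons per animal fell in the same class. Pdf, the peptide of clock neurons, had 8 to 23 counts in 5 libraries and 0 in CC_3 and CC_7. Eh, the eclosion hormone, which a pair of brain neurons makes, had 14 counts in CC_5, 5 in CC_3 and 0 in the other 5. Ptth, the brain hormone that drives ecdysone synthesis, had 36 counts in CC_7 and 0 in CC_4 and CC_5. CC_7 lacked both Pdf and Eh, and CC_4 both Eh and Ptth. Over all precursors CC_7 had the most genes at 0, with 8.

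Burs and Pburs encode the subunits of bursicon, which hardens the cuticle after ecdysis. Burs had 23 counts over all libraries and 0 in 4 of them. Pburs had 4 to 11 counts in every library, and its dispersion index, the squared deviation from an even level over that of counting error alone, was 0.297. Of the 20 genes below the limit of 10 counts in every library, 18 had an index above 3, and the exceptions were Pburs and Nplp4. This was near the background, since 93.2% of all 4988 genes below the limit with at least 10 counts in total had such an index. AstCC, which lies beside AstC on chromosome 2L, had 59 counts in CC_2 and 0 to 15 in the others. RYa, the precursor of RYamides, had 16 counts in its highest library and 0 in 2, and Nplp4 had at most 4 counts in any library.

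Nplp3, Lk, SIFa, Dsk, Pburs, Ilp6 and Ilp8 were highest in CC_1, the library with the highest photoreceptor, yolk and fat body sums. CC_1 was highest for 3 of the 21 precursors with at least 10 counts in every library, against 23.1% of all such genes. The share of precursors was thus not above that of all genes. Pburs had 10 counts in CC_1 and 11 in CC_2. Nplp3, a neuropeptide-like precursor, had 113 counts in CC_1 (4.21 CPM) and 44 in CC_5 (1.54 CPM). It had 25 in CC_2 (0.738 CPM) and 2 to 8 in the others. CC_1, CC_2 and CC_5 were also the libraries with the highest photoreceptor sums, at 1148.0, 230.4 and 172.0 CPM. For Nplp3, CC_5 lay above CC_2, the reverse of their order by photoreceptor sum. Whether photoreceptor RNA had a part in the Nplp3 level was not tested. Without CC_1, Nplp3 averaged 0.503 ± 0.560 CPM (SD, n = 6), against 1.03 ± 1.49 CPM with it.

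SIFa, a peptide of a few neurons in the pars intercerebralis, had 2.61 CPM in CC_1 and 1.31 CPM in CC_4. The other libraries had 0.140 to 0.649 CPM. The photoreceptor sum of CC_4 was 38.5 CPM. Whether photoreceptor RNA had a part in the SIFa level was not tested. Dsk, a cholecystokinin-like satiety peptide, had 1.15 CPM in CC_1 and 0.676 CPM in CC_4. Without CC_1 the mean was 0.583 ± 0.394 CPM for SIFa (SD, n = 6), against 0.872 ± 0.845 CPM with it. For Lk it was 2.32 ± 1.03 CPM, against 2.86 ± 1.71 CPM, and for Dsk 0.277 ± 0.242 CPM, against 0.402 ± 0.399 CPM. For Ilp8 it was 0.824 ± 0.295 CPM, against 0.945 ± 0.42 CPM, and for Pburs 0.282 ± 0.055 CPM, against 0.295 ± 0.0607 CPM.

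The relation of each precursor to the photoreceptor sum was computed over the 7 libraries after these values had been seen. Of 30 precursors with at least 10 counts in 4 or more libraries, 3 had a two-sided exact permutation p below 0.05, where 9.03% of all 10964 such genes did. The share of precursors was thus near that of all genes. These were Lk (Pearson's r = 0.866, exact permutation p = 0.0159, Spearman's rho = 0.821, p = 0.0341), Ilp6 (r = 0.839, p = 0.0163, rho = 0.607, p = 0.167) and Ilp2 (r = -0.819, p = 0.0230, rho = -0.821, p = 0.0341). Adjusted over the 10964 genes, 0 passed 0.05 (adjusted exact permutation p = 0.486 for Lk and Ilp6 and 0.509 for Ilp2). After removal of the 2 libraries most distant from the middle photoreceptor sum, r was 0.586 for Lk, 0.603 for Ilp6 and -0.485 for Ilp2, so the relations rested partly on those libraries.

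**Figure D3:**
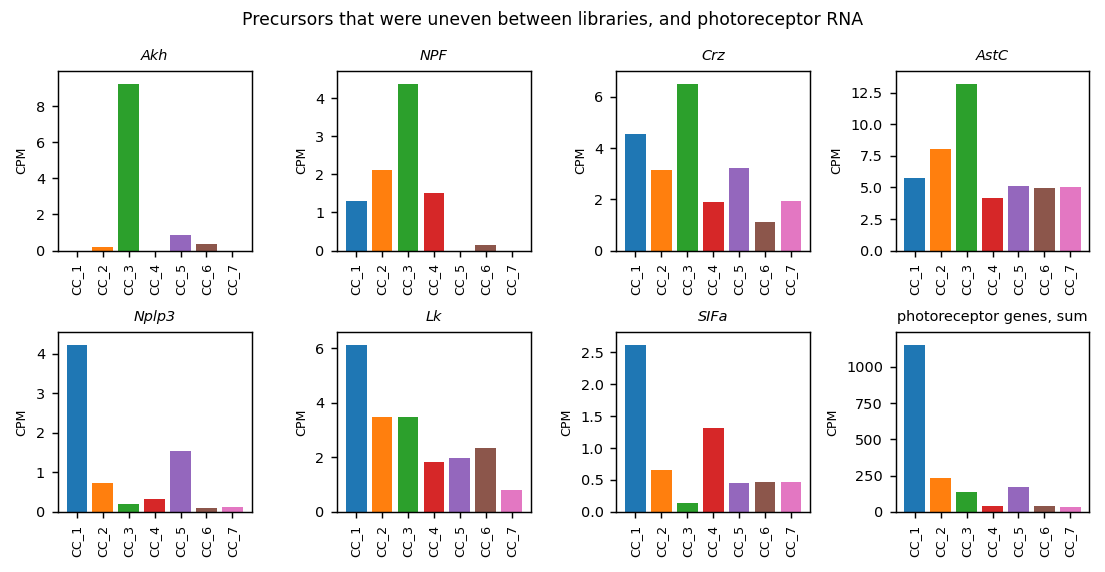
CPM per library (bars, linear axes from 0) of 7 precursors that were uneven between libraries, chosen after their values were seen, and the summed CPM of 9 photoreceptor genes. Akh and NPF peak in CC_3 at 9.22 and 4.37 CPM, whereas Nplp3, Lk and SIFa peak in CC_1, the library with 1148.0 CPM of photoreceptor RNA.

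The spread between cultures was set beside that of all genes. Among the 21 precursors with at least 10 counts in every library, 14 had a highest library at least 2-fold above the lowest, against 25.4% of the 9476 genes. Since low genes spread more, the count was split by level. At 10 CPM or more, 2 of 9 precursors did so (Dh31 at 2.12-fold and Ms at 2.71-fold), against 4.94% of 6421 genes. At 1 to 10 CPM, 11 of 11 did so, against 67.0% of 2894 genes. A range of at least 3-fold was reached by 10 of the 21, all below 10 CPM, against 11.7% of genes of any level. This share of genes was not split by level, so the 2 values are not matched. Without CC_1 the 2-fold count was 14 of 21, against 22.2% of genes.

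As a measure of spread beyond counting error, the biological coefficient of variation (BCV) of edgeR had a median of 0.333 over the 21 precursors, against 0.152 over all genes, and 18 of the 21 lay above the median of all genes. At 10 CPM or more the medians were 0.197 and 0.124, and at 1 to 10 CPM 0.390 and 0.316. The lowest BCVs were those of sNPF (0.107), Proc (0.110) and Nplp1 (0.118), and the highest that of Ilp6 (0.551), followed by Lk (0.478) and Crz (0.459). The median BCV without each library in turn stayed between 0.316 and 0.353. No test was made of these medians.

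**Figure D4:**
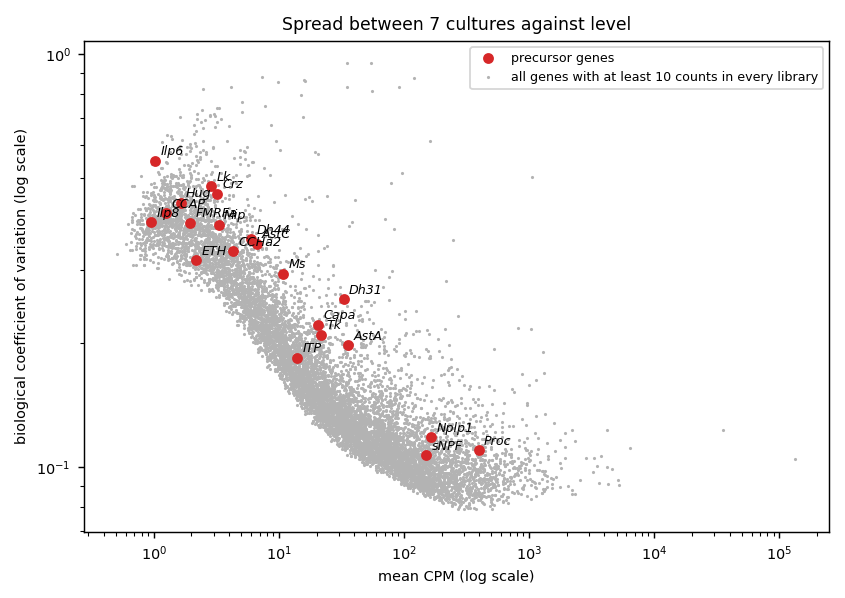
BCV against mean CPM, both on log axes, for the 21 precursor genes (red, named) and the 9476 genes with at least 10 counts in every library (grey). Proc, Nplp1 and sNPF lie between 0.107 and 0.118, and Dh31 (0.255), Ms (0.294) and Lk (0.478) lie towards the upper side of genes of their level.

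The highest library was CC_3 for 10 of the 21, against 12.4% of all genes. It was CC_2 for 4 (6.03% of genes), CC_5 for 4 (16.3%) and CC_1 for 3 (23.1%). The 10 were Dh31, AstA, AstC, Mip, Tk, Crz, Hug, Capa, ITP and Dh44, which include inhibitory, diuretic and feeding peptides. CC_3 also had the highest sum of the 9 processing genes (974.8 CPM, 860.9 to 948.1 CPM in the others). Its sum of the 5 neuroblast markers was the highest as well (73.2 CPM, 53.4 to 72.3 CPM in the others). Of these, dpn, mira, wor and ase were each highest in CC_3, at 5.69, 20.7, 11.2 and 8.77 CPM. The marker insc was highest in CC_4, at 40.7 CPM, and had 26.8 CPM in CC_3. CC_2 and CC_3 had the highest sums of the 5 neuron markers. With TMM scaling 7 of the 21 were highest in CC_3, against 13.5% of genes, and 7 in CC_2, against 10.9%. With DESeq2 size factors 7 were highest in CC_3, against 13.9% of genes, and 8 in CC_2, against 10.7%. CC_3 thus led alone with library totals but not with these scalings. CC_3 had a photoreceptor sum of 136.5 CPM, the median of the 7 libraries. The part of these markers in the levels was not tested. The lowest library was CC_7 for 6 of the 21 (11.7% of all genes), CC_6 for 5 (10.1%), CC_5 for 5 (17.1%), CC_4 for 3 (11.4%) and CC_1 and CC_2 for 1 each. For CC_5 the shares of precursors highest and lowest there were both near those of all genes. No library lay far outside the range of the other 6 for any of the 21, against 6.72% of all genes, by the gap to the next library relative to the whole range. Among the 20 precursors below the limit 4 had such a library, against 22.3% of all genes below it with at least 10 counts in total. The lead of CC_3 with library totals was noticed after the values were seen.

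**Figure D5:**
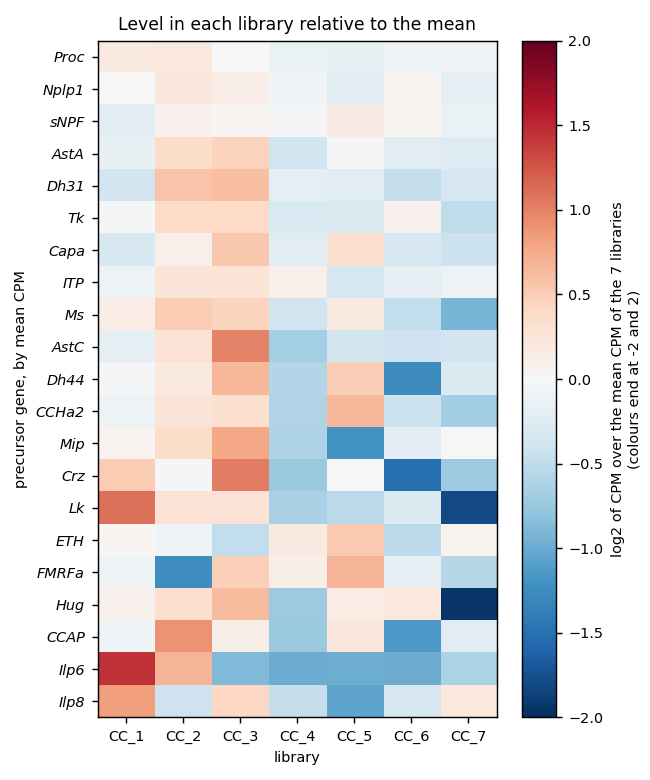
Log2 of CPM in each library over the mean CPM of the 7 libraries for the 21 precursor genes, ordered by mean CPM. Columns CC_2 and CC_3 are red for most genes from AstA to Crz. CC_4, CC_6 and CC_7 are mostly blue, and Lk, Ilp6 and Ilp8 are reddest in CC_1.

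Pairs of precursors were compared across the 7 libraries on the log2(CPM + 1) scale. Of 210 pairs, 84.3% had a positive Pearson correlation, with a median of 0.41, against 52.4% and 0.03 over all pairs of the 9476 genes. A correlation of at least 0.8 was found for 17 pairs (8.10%), against 2.48% of all gene pairs. The pairs share libraries and genes, so they are not independent. In the two-sided exact permutation test over all pairings of the libraries, 28 pairs had an unadjusted p below 0.05 and 0 passed after Benjamini-Hochberg adjustment over the 210 pairs (smallest adjusted p = 0.333). With Spearman's rho 0 passed as well, and 30 had an unadjusted p below 0.05.

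The closest pairs by Pearson's r were AstA with AstC and Nplp1 with Tk, and by Spearman's rho Tk with Hug (rho = 0.964, permutation p = 0.00278, adjusted p = 0.333). AstA and AstC had Pearson's r = 0.933 (p = 0.00159 by exact permutation, 0.333 after adjustment) and Spearman's rho = 0.929 (permutation p = 0.00675). Nplp1 and Tk had r = 0.929 (p = 0.00496 by exact permutation, 0.342 after adjustment) and rho = 0.857 (permutation p = 0.0238). After removal of the 2 libraries in which one gene of the pair lay farthest from its median, r for AstA with AstC was 0.747 by either gene. For Nplp1 with Tk it was 0.992 by Nplp1 and 0.942 by Tk. Dh31 with AstA, chosen after its values were seen, had r = 0.904 (p = 0.0280 by exact permutation, 0.342 after adjustment) and rho = 0.536 (permutation p = 0.236). Its r became -0.172 without CC_2 and CC_3, so it rested on those libraries.

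Precursors known to occur in the same or in neighbouring neurons of the fly did not pass the test either. ITP and Tk, which occur together in lateral neurosecretory cells of the brain, had r = 0.650 (exact permutation p = 0.120, adjusted p = 0.377) and rho = 0.536 (permutation p = 0.236). CCAP and Mip, which share efferent neurons of the ventral nerve cord, had r = 0.325 (p = 0.483 by exact permutation, adjusted p = 0.723) and rho = 0.357 (permutation p = 0.444). FMRFa and Nplp1, which mark neighbouring cells of the thoracic apterous clusters, had r = -0.469 (p = 0.293 by exact permutation, adjusted p = 0.585) and rho = -0.429 (permutation p = 0.354). ITP and sNPF had r = 0.0480 (p = 0.910 by exact permutation, adjusted p = 0.981) and rho = -0.0357 (permutation p = 0.963). With 2 libraries removed in this way, r for ITP with Tk was 0.552 by Tk and -0.143 by ITP, and r for CCAP with Mip was 0.841 by Mip and 0.135 by CCAP. For FMRFa with Nplp1 it was 0.769 by either gene, and for ITP with sNPF -0.409 by sNPF and -0.589 by ITP. These values thus depended on which libraries were removed, and the choice by each gene was added after seeing the data. The bursicon and insulin pairs were not tested, because at least 1 gene of each had under 10 counts in a library.

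The enzymes that turn precursors into active peptides were all detected. The prohormone convertase amon had 255 ± 18.6 CPM, its chaperone 7B2 94.1 ± 8.36 CPM and the carboxypeptidase svr 261.9 ± 13.1 CPM (SD, n = 7). Of the amidating enzymes, Phm had 94.5 ± 3.63 CPM, Pal2 126.3 ± 15.5 CPM and Pal1 46.2 ± 5.25 CPM. dimm, a transcription factor of peptidergic neurosecretory cells, had 37.3 ± 5.40 CPM. The glutaminyl cyclases isoQC and QC, which form the blocked N-terminus of some peptides, were lower at 4.09 ± 0.880 and 1.31 ± 0.760 CPM. The median BCV of these 9 genes was 0.124. For genes of at least 10 CPM it was 0.124 over all genes and 0.197 over the 9 precursors. isoQC and QC lie below that level, so the processing genes are not matched to these sets. QC was an uneven one, with a BCV of 0.451 and a 4.92-fold range.

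Further precursors outside the list gave a similar range. Of 8 such genes, 4 had at least 10 counts in every library. Orcokinin (55.1 ± 5.31 CPM) and Gpb5 (32.9 ± 3.83 CPM), a glycoprotein hormone subunit, were even between cultures, spab had 2.64 ± 1.2 CPM and Trissin 2.06 ± 0.914 CPM. Trissin reached 4.09 CPM in CC_3, against 1.40 to 2.03 CPM in the others. amn (0.772 ± 0.465 CPM), natalisin (0.541 ± 0.453 CPM) and Ilp4 (11 counts over all libraries) lay below the limit. Gpa2, the partner subunit of Gpb5, had 0 counts in every library, but the annotation places it on an unmapped scaffold, so no level was drawn from this.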

How the data were processed

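RNA of 7 control primary neuron cultures was analysed. The labels name a ribosomal-RNA-depleted total RNA kit and the dm6 genome, and the study also calls this experiment total RNA-seq, although its methods describe an mRNA kit. The authors deposited whole-number counts of reads per gene, not normalized, in a table titled as featureCounts output. Its aligner, annotation and strand setting were not given in the sources used here, and 8 further columns that match no sample were left aside. The members and gene lists were chosen with earlier results of these data known.

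Counts were scaled to CPM with the library totals, with a pseudocount of 1 CPM on the log2 scale. Symbols, positions and exon lengths came from the Ensembl release 115 annotation (BDGP6.54), which matched 17626 of 17753 identifiers. Detection required 10 or more counts in each of the 7 libraries. Genes are named if they are members, processing genes, further precursors or cell markers on fixed lists. Genes that overlap or enclose a member are named as well. Correlations and neighbouring levels were tested two-sided by exact permutation with Benjamini-Hochberg adjustment, and an outlying library is one whose gap to the next exceeds 0.568 of the range. BCVs are square roots of tagwise dispersions (edgeR 4.0.16, TMM, intercept only). P-values measure the spread between these cultures only. The steps across genes were tested on simulated data in which all genes had the same dispersion, set below that of every detected precursor. This does not show how the steps perform for the precursors. R 4.3.3, DESeq2 1.42.0 (size factors), Python 3.11.15, numpy 2.4.6, pandas 2.3.3, scipy 1.17.1 and matplotlib 3.10.9 were used. Alternatives were other detection limits, TMM and DESeq2 scaling, another pseudocount, exon length and leaving out each library.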

Additional observations from a re-analysis of the deposited data

Results flagged for a closer look

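In 4 of the 41 precursors 1 library lay far from the other 6. None of the 21 genes with at least 10 counts in every library was among them, where 6.72% of all such genes had a library of this kind. All 4 were among the 20 genes below that limit, where 22.3% of all 4988 genes below it with at least 10 counts in total had one, so the share of precursors was near the background. Chance sets apart a library in about 1 in 20 groups of normal values, which counts near 0 are not. Akh stood at 9.22 CPM in CC_3, against 0 to 0.841 CPM in the others. Nplp3 stood at 4.21 CPM in CC_1, against 0.0944 to 1.54 CPM. AstCC stood at 1.74 CPM in CC_2, against 0 to 0.583 CPM. Eh stood at 0.491 CPM in CC_5, against 0 to 0.175 CPM, which rests on 14 counts.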

How the results depend on the processing

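The number of detected precursors was 21, and it was 10 with 100 counts in every library, 15 with 1 CPM in every library, 28 with 1 count in every library and 30 with 10 counts in at least 4 libraries. That last filter also gave 23 genes with a 2-fold spread and a median BCV of 0.465, and it adds low genes by construction. The median level of 2.72 was 0.98 when all members with a count were used, which likewise adds low genes, and 2.41 to 2.87 with libraries left out. On the log2(CPM + 1) scale, 2 genes had an outlying library in place of 4, and 4 to 8 had one with libraries left out (8 without CC_2, 7 without CC_4). The cause was not tested. With libraries left out, 21 to 23 precursors were detected, the 2-fold count was 13 to 16, the median BCV 0.316 to 0.353 and the genes highest in CC_3 10 to 12. With TMM or DESeq2 scaling, 7 genes were highest in CC_3, and 7 or 8 in CC_2. The alternatives for CC_3 and for neighbouring levels were chosen after seeing the data. Counts of correlated pairs and of separated neighbours at adjusted p below 0.05 were 0 under every alternative run, with 15 to 32 pairs at an unadjusted exact p below 0.05. Fewer libraries raise the smallest p a test can give, so this says little about stability. Among 225 alternative levels of named precursors none moved by more than 1 SD. Leaving out 1 of 7 libraries cannot move a mean that far, so this count does not show stability to single libraries. Akh without CC_3 (0.233 CPM), Nplp3 without CC_1 (0.503 CPM) and NPF without CC_3 (0.847 CPM) moved by over 1.5 times. No paired analysis was possible because all libraries belong to 1 condition. Depth limits the low genes, since 10 counts are 0.295 CPM in the deepest and 0.472 CPM in the shallowest library.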
